A study of Drosophila melanogaster with 64 samples.

Results

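Drosophila melanogaster carries 6 genes for conventional actin, and all of them were followed here: Act5C, Act42A, Act57B, Act79B, Act87E and Act88F, 6 of the 17481 genes in the deposited count table. They were taken by symbol as the complete family, and the choice of this family was made with earlier results of these data known. Act5C and Act42A encode the cytoplasmic actins, and Act57B, Act79B, Act87E and Act88F encode the actins of muscle. The RNA came from whole heads of male w[1118] flies (Bloomington stock 5905), a white-eyed laboratory strain, with 20 heads per sample. Flies of 3 d of age received a severe traumatic brain injury (TBI) or sham handling and were sampled 1 h, 3 h, 6 h, 12 h or 24 h later, or 3 d, 7 d, 10 d or 15 d later. Control flies were uninjured males of 3 d of age. Each group had 3 replicates except sham and TBI at 15 d, which had 2. Libraries were made on 2 days: 31 on library day 1 (controls, 24 h and all later times) and 33 on library day 2 (controls and 1 h to 24 h), and by their labels 9 RNAs (controls, sham 24 h and TBI 24 h) were sequenced on both. The labels thus give 55 RNAs, more than the number of unique RNAs in the series text.

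Actin monomers assemble into filaments that carry cell shape, movement, phagocytosis and wound closure in every cell, and that form the thin filaments pulled by myosin in muscle. Flies keep separate genes for these uses: the cytoplasmic actins are made in nearly all cells, whereas each muscle actin gene is used in its own set of larval or adult muscles. A fly head contains neurons, glia, photoreceptors, fat body and the muscles that move the mouthparts and antennae, so both classes are measured together in head RNA. In such bulk samples, fewer cells of a type and less RNA per cell cannot be told apart.

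Counts assigned to genes ranged from 9.16 to 26.4 M reads per library on day 1 (M for 1000000; median 16.1 M) and from 18.6 to 44.9 M on day 2 (median 24.3 M). Markers of the labelled tissue were abundant in all 64 libraries, with the rhodopsin gene ninaE at 16400 CPM or more and the neuronal gene elav at 199 CPM or more. CPM here are counts per 1000000 gene counts. For the actin genes and their partners they were also scaled by the edgeR TMM factor, and for marker genes and marker sums they were not. Of the 4 male reproductive markers, SP and Mst84Da were at 0 in 61 libraries each, and the highest value of any in 1 library was 1.49 CPM. The third TBI library at 10 d held 632 CPM of Yp1, a yolk protein gene active in the female fat body, against at most 11.2 CPM in any other library. The 10 d differences of Act5C, Act42A, Act57B, Act79B and Act87E are therefore also given without it.

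The 6 genes encode proteins of the same length, with 376 codons each, the stop codon left out, in the BDGP6.54 annotation, and are found at 6 separate places in the genome. Act5C lies on chromosome X (5900861 to 5905399, plus strand), with 5 annotated transcripts whose merged exons cover 2978 bases, the longest of the family. Act42A (6013910 to 6015689, minus strand, 1626 exonic bases) and Act57B (20944021 to 20946431, plus strand, 1724 exonic bases) lie far apart on 2R. Act79B lies on 3L (21985210 to 21987190, plus strand, 1619 exonic bases). Act87E (13425983 to 13428375, plus strand, 1989 exonic bases) and Act88F (15439969 to 15442177, plus strand, 1595 exonic bases) lie on 3R. No source used here names the build behind the deposited counts. The coding regions of actin genes are very similar in sequence, so reads that fit more than 1 member may have been dropped or split by the counting, and every actin count is uncertain to that extent. Of all reads, 3.57% to 4.92% per library on day 1 and 4.04% to 16.5% on day 2 were set aside as not uniquely aligned. A small nucleolar RNA gene overlaps an exon of Act57B and had 0 counts in all libraries. The gene lncRNA:CR45591 overlaps an Act87E exon on the opposite strand and had 0 to 4 counts.

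In uninjured heads, a muscle actin and a cytoplasmic actin shared the top of the family. Per kilobase of merged exon, the level of Act57B in day 2 controls was 246 ± 46.0 CPM (SD, n = 3) and that of Act5C was 207 ± 4.62 CPM. The ranges of these 2 genes overlapped in the day 2 controls. On day 1 the same levels were 389 ± 44.1 and 336 ± 13.9 CPM per kilobase and did not overlap, although the margin was small. Act87E followed at 22.6 ± 5.31 CPM per kilobase on day 2 and 50.4 ± 2.64 on day 1. Act42A came next, at 9.38 ± 1.27 and 15.7 ± 2.91 CPM per kilobase, and Act79B after it, at 4.81 ± 0.524 and 14.1 ± 0.733. Act42A and Act79B overlapped in the day 1 controls and not in those of day 2. Act88F, the flight muscle actin, was lowest, at 0.420 ± 0.131 and 0.804 ± 0.446 CPM per kilobase. The flight muscle genes fln and TpnC4 reached at most 0.502 and 0.540 CPM in any library. Which gene stood first depended on the length used: per kilobase of coding sequence, Act5C stood above Act57B on both days (546 ± 12.2 against 376 ± 70.2 CPM per kilobase on day 2). The lower 4 places did not change.

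Act5C, which supplies cytoplasmic actin throughout the body, was higher in TBI than in sham heads from the first hour through the first day. At 1 h the 3 sham libraries held 643, 710 and 673 CPM and the 3 TBI libraries 1235, 1125 and 1243 CPM. All TBI values lay far above all sham values, a difference of 0.83 ± 0.13 on the log2 scale (SE; edgeR's quasi-likelihood test with Benjamini-Hochberg adjustment, adjusted p = 8.82e-05). At 3 h, sham libraries held 694, 715 and 706 CPM and TBI libraries 1751, 1911 and 1312 CPM, a log2 difference of 1.23 ± 0.13 (2.35-fold; edgeR adjusted p = 1.44e-07). The sham libraries lay close together, while the third TBI library was well below the other 2. At 6 h the log2 difference was 1.11 ± 0.13 (edgeR adjusted p = 1.01e-06). It was 0.87 ± 0.13 at 12 h (edgeR adjusted p = 4.44e-05) and 1.08 ± 0.13 at 24 h (edgeR adjusted p = 1.99e-06). At 12 h the 3 TBI libraries were nearly equal, at 1205, 1198 and 1203 CPM, against 594, 665 and 711 CPM in sham. Across the whole of day 2, sham libraries spanned 549 to 715 CPM and TBI libraries 966 to 1911 CPM, so no TBI library at any of the 5 times reached down to any sham library.

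Markers of the fat body (Lsp2, apolpp, FASN1 and Yp1) differed in the same libraries. Their summed level was 3596 to 5496 CPM in TBI and 6540 to 9630 CPM in sham at 1 h, 2143 to 3506 against 5585 to 8145 CPM at 3 h, and 6035 to 8417 against 10440 to 11670 CPM at 12 h, with no overlap. The groups overlapped at 6 h and at 24 h on both days. Of the 4 markers, 1, 2, 1, 2 and 1 fell at the 5 times of day 2 (edgeR) and none rose. Of all genes tested, 2.41%, 6%, 4.26%, 3.63% and 2.2% fell at these times. The part of the fat body markers in the actin results was not tested.

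The Act5C difference was smaller at the later times of day 1. At 24 h, sham libraries of day 1 held 928, 921 and 911 CPM and TBI libraries 2041, 1535 and 2384 CPM, a log2 difference of 1.11 ± 0.12 (edgeR adjusted p = 4.54e-07). These are the same RNAs as the 24 h libraries of day 2, where TBI held 1335, 966 and 1410 CPM, and the second RNA was the lowest of the 3 on both days. At 3 d, sham held 938, 947 and 1061 CPM and TBI 1233, 1519 and 1407 CPM, a log2 difference of 0.50 ± 0.12 (edgeR adjusted p = 0.0246). The groups did not overlap, but the call was lost without sham replicate 1 or 2 or TBI replicate 2 or 3, with adjusted p up to 0.218, and when these 2 groups alone were fitted (0.169). At 7 d, 10 d and 15 d the log2 differences were 0.10 ± 0.11, 0.14 ± 0.11 and 0.20 ± 0.14, and none passed (edgeR adjusted p of 0.966, 0.916 and 0.888). A joint edgeR test of whether the TBI difference varied among the 5 times passed for Act5C on day 1 (adjusted p = 0.00553). On day 2 it did not (adjusted p = 0.572).

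**Figure D1:**
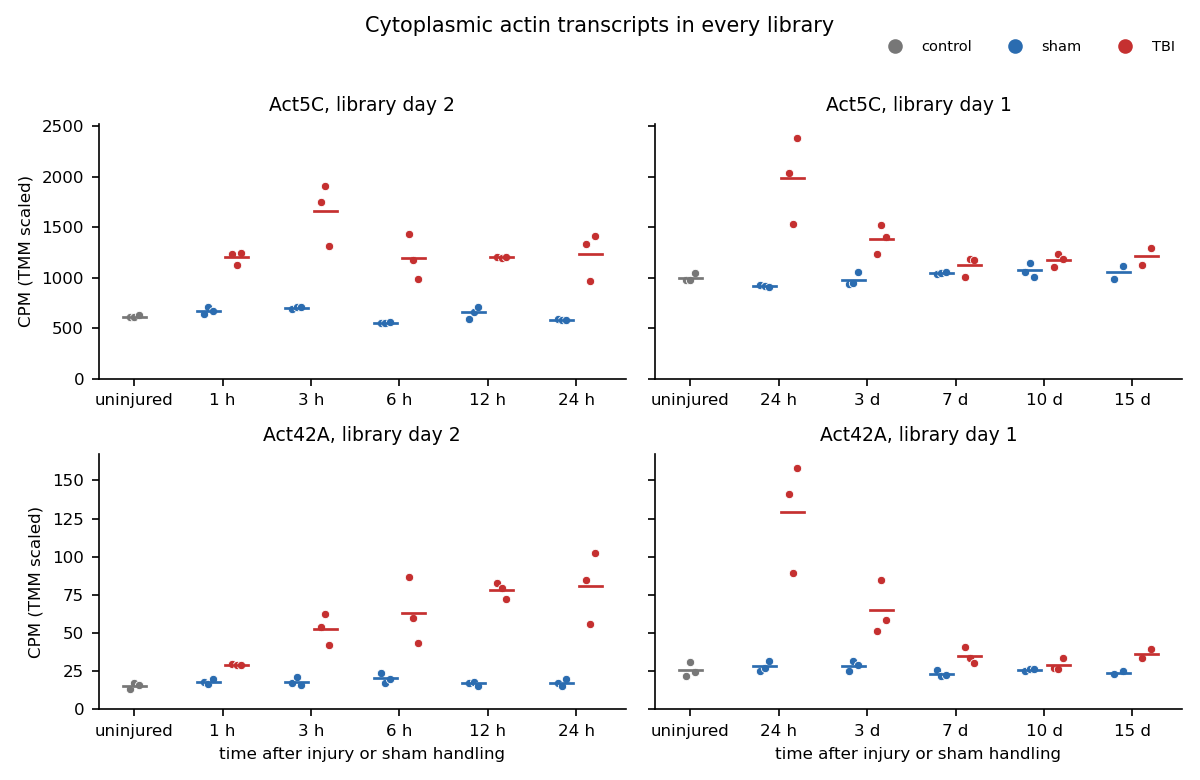
Levels of Act5C and Act42A in every library, in CPM scaled by the TMM factor, by time after injury, for library day 2 (left) and library day 1 (right). Points are libraries and short lines are group means. Act5C TBI libraries sit at 966 to 1911 CPM on day 2, above all sham libraries, and Act42A TBI means go from 29.2 CPM at 1 h to 81.0 CPM at 24 h.

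Act42A, the second cytoplasmic actin gene, was far less abundant than Act5C and had the largest log2 differences of the family up to 24 h, except at 1 h. At 1 h, sham libraries held 17.6, 16.3 and 19.9 CPM and TBI libraries 29.7, 28.9 and 29.0 CPM. The groups did not overlap, and the log2 difference was 0.70 ± 0.21 (edgeR adjusted p = 0.0356). It was lost when any 1 of the 6 libraries was left out, with adjusted p from 0.0608 to 0.122, and also with no filter on low counts. At 3 h, sham held 17.0, 20.9 and 15.6 CPM and TBI 53.9, 62.1 and 41.9 CPM (log2 difference 1.56 ± 0.21, edgeR adjusted p = 3.63e-06). The lowest TBI library lay far above the highest sham library. At 6 h, TBI held 86.5, 60.1 and 43.2 CPM, a wide spread, against 23.7, 16.9 and 19.6 CPM in sham (1.66 ± 0.21, edgeR adjusted p = 2.47e-06). At 12 h, TBI held 82.8, 79.8 and 72.4 CPM and sham 17.3, 17.9 and 15.5 CPM, a log2 difference of 2.22 ± 0.21 (4.64-fold; edgeR adjusted p = 4.65e-08). At 24 h the difference was 2.23 ± 0.21 (edgeR adjusted p = 3.95e-08), with TBI at 84.9, 55.6 and 103 CPM and sham at 17.0, 15.0 and 19.7 CPM. Over day 2, sham libraries stayed between 15.0 and 23.7 CPM at every time.

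On day 1, Act42A stood at 141, 89.3 and 158 CPM in TBI and 25.3, 27.1 and 31.5 CPM in sham at 24 h (log2 difference 2.21 ± 0.19, edgeR adjusted p = 2.63e-08). At 3 d it stood at 51.4, 84.9 and 58.4 CPM in TBI and 24.8, 31.4 and 28.6 CPM in sham (1.20 ± 0.18, edgeR adjusted p = 6.43e-04). The 3 d groups did not overlap, and the call held without any 1 of these 6 libraries, but not when the model was fitted to these 2 groups alone (adjusted p = 0.0603). At 7 d, TBI held 40.6, 33.8 and 30.1 CPM and sham 25.3, 21.9 and 22.7 CPM. These groups did not overlap either, as was true of 12.8% of genes, and the log2 difference of 0.58 ± 0.19 did not pass (edgeR adjusted p = 0.305). At 10 d the difference was 0.18 ± 0.19 (0.06 without the third TBI library, and 0.13 for Act5C) and at 15 d it was 0.62 ± 0.23, with 33.6 and 39.2 CPM in TBI against 22.7 and 24.8 CPM in sham (edgeR adjusted p of 0.944 and 0.613). The joint test across times passed for Act42A on both days (edgeR adjusted p = 0.00635 on day 2 and 8.44e-04 on day 1). It passed for 3.68% of genes on day 2 and 0.407% on day 1. No step of the TBI difference between neighbouring times passed for any actin gene. Of all genes, the steps that passed were 0.68% from 1 h to 3 h, 0.196% to 6 h, 0.0838% to 12 h and 0.0652% to 24 h. On day 1 they were 0.114% from 24 h to 3 d, 0.00946% to 7 d, and 0% for both later steps. The actin steps with the smallest unadjusted p were from 24 h to 3 d, at -1.01 ± 0.26 for Act42A (adjusted p = 0.133), and, for Act5C, -0.61 ± 0.16 over the same interval (adjusted p = 0.159).

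The share of Act42A in cytoplasmic actin RNA was described without a test. Per kilobase, Act42A made up 3.83% to 7.31% of the 2 cytoplasmic actins in sham libraries of day 2. At 1 h it was 4.27% ± 0.204 in TBI and 4.65% ± 0.554 in sham (SD, n = 3), with overlapping groups. From 3 h to 24 h the groups did not overlap. The share was 5.49% ± 0.141 in TBI and 4.42% ± 0.614 in sham at 3 h, and 8.65% ± 1.27 and 6.22% ± 0.996 at 6 h. It was 10.7% ± 0.642 and 4.53% ± 0.635 at 12 h, and 10.6% ± 1.12 and 5.12% ± 0.668 at 24 h. On day 1 it was 10.6% ± 0.840 in TBI and 5.28% ± 0.620 in sham at 24 h, 7.81% ± 1.27 and 5.01% ± 0.614 at 3 d, and 5.43% ± 1.25 and 3.92% ± 0.325 at 7 d. At 10 d the shares of 4.31% ± 0.609 and 4.20% ± 0.264 overlapped. The third TBI library of 10 d, with the high Yp1, was at 4.94%, and the first and second were at 4.29% and 3.72%. At 15 d the shares were 5.21% in TBI and 3.97% in sham.

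Act57B, the most abundant muscle actin gene of the head, is used in larval and adult body muscles. It was called higher in TBI at 6 h and 24 h, but not at the other times of day 2. At 1 h and 3 h the log2 differences were 0.28 ± 0.19 and 0.33 ± 0.19 (edgeR adjusted p of 0.484 and 0.263). At 6 h, sham held 348, 531 and 522 CPM and TBI 536, 761 and 763 CPM. The lowest TBI library lay only just above the highest sham library, and the log2 difference of 0.56 ± 0.19 just passed (edgeR adjusted p = 0.0489). The call was lost without sham replicate 1 or 3 or TBI replicate 2 or 3 (adjusted p up to 0.262), and it passed in 8 of the 33 fits that each left out 1 library of the day. It was also lost with no filter on low counts (0.0814) and when these 2 groups alone were fitted (0.214). At 12 h the difference was 0.54 ± 0.19 (edgeR adjusted p = 0.0710; 0.0493 with DESeq2). Without sham replicate 2 of 12 h it was 0.72 and passed (edgeR adjusted p = 0.0267). At 24 h, TBI held 1003, 812 and 634 CPM and sham 416, 345 and 317 CPM, a log2 difference of 1.18 ± 0.19 (2.27-fold; edgeR adjusted p = 8.83e-05).

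On day 1 the Act57B difference at 24 h was 1.19 ± 0.24 (edgeR adjusted p = 0.00189), with TBI at 1618, 1298 and 1087 CPM and sham at 661, 592 and 507 CPM. At 3 d it was 1.18 ± 0.24 (edgeR adjusted p = 0.0121), with TBI at 1070, 1478 and 741 CPM and sham at 596, 449 and 409 CPM. The groups did not overlap, but the TBI libraries were spread widely, and without the second, the highest, the difference was 0.90 (adjusted p = 0.153). The 3 d call was also lost without sham replicate 2 (0.0834) or 3 (0.0790), and when these 2 groups alone were fitted (0.138). At 7 d, TBI held 1230, 652 and 672 CPM, so that 1 library stood well above the other 2, and sham held 620, 525 and 458 CPM. The log2 difference of 0.67 ± 0.24 did not pass (edgeR adjusted p = 0.405), and without the first TBI library it was 0.30. At 10 d and 15 d the differences were 0.19 ± 0.24 and 0.02 ± 0.29 (edgeR adjusted p of 0.975 and 0.999), and without the third TBI library of 10 d the first was 0.01.

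Act87E, also expressed in body muscles, showed no TBI difference until 24 h. At 1 h, 3 h, 6 h and 12 h the log2 differences lay between -0.03 and 0.09, each with an SE of 0.18, and the groups overlapped at each of these times. At 24 h on day 2, sham held 48.8, 45.3 and 38.0 CPM and TBI 88.4, 97.8 and 61.4 CPM. The groups no longer overlapped, and the log2 difference was 0.91 ± 0.18 (1.88-fold; edgeR adjusted p = 0.00146). The same RNAs on day 1 gave 98.4, 101 and 77.2 CPM in sham and 189, 214 and 127 CPM in TBI. There the log2 difference of 0.94 ± 0.33 did not pass with edgeR (adjusted p = 0.0587), although it did with DESeq2 (0.0223), when only these 2 groups were fitted (0.0207) and when both libraries of each RNA were summed (0.0081). At 3 d, TBI held 178, 359 and 180 CPM and sham 92.7, 72.6 and 73.2 CPM, a log2 difference of 1.59 ± 0.34 (3.00-fold; edgeR adjusted p = 0.0152). The second TBI library was far above the other 2, and without it the difference was 1.17 (adjusted p = 0.196). The call was also lost without any 1 of the 3 sham libraries, and when these 2 groups alone were fitted (0.0742).

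At the latest times Act87E differed widely among TBI replicates. At 7 d, TBI held 235, 95.1 and 91.3 CPM and sham 81.2, 74.0 and 68.0 CPM. At 10 d, TBI held 77.0, 94.1 and 190 CPM and sham 66.2, 78.7 and 63.0 CPM. In each group 1 TBI library lay far above its replicates, and the log2 differences of 0.92 ± 0.33 and 0.80 ± 0.33 did not pass (edgeR adjusted p of 0.444 and 0.523). Without those libraries they were 0.32 and 0.30. The high library of 10 d is the one with 632 CPM of Yp1. At 15 d both TBI libraries, at 116 and 118 CPM, lay above both sham libraries, at 88.7 and 76.1 CPM (0.51 ± 0.40, edgeR adjusted p = 0.911).

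**Figure D2:**
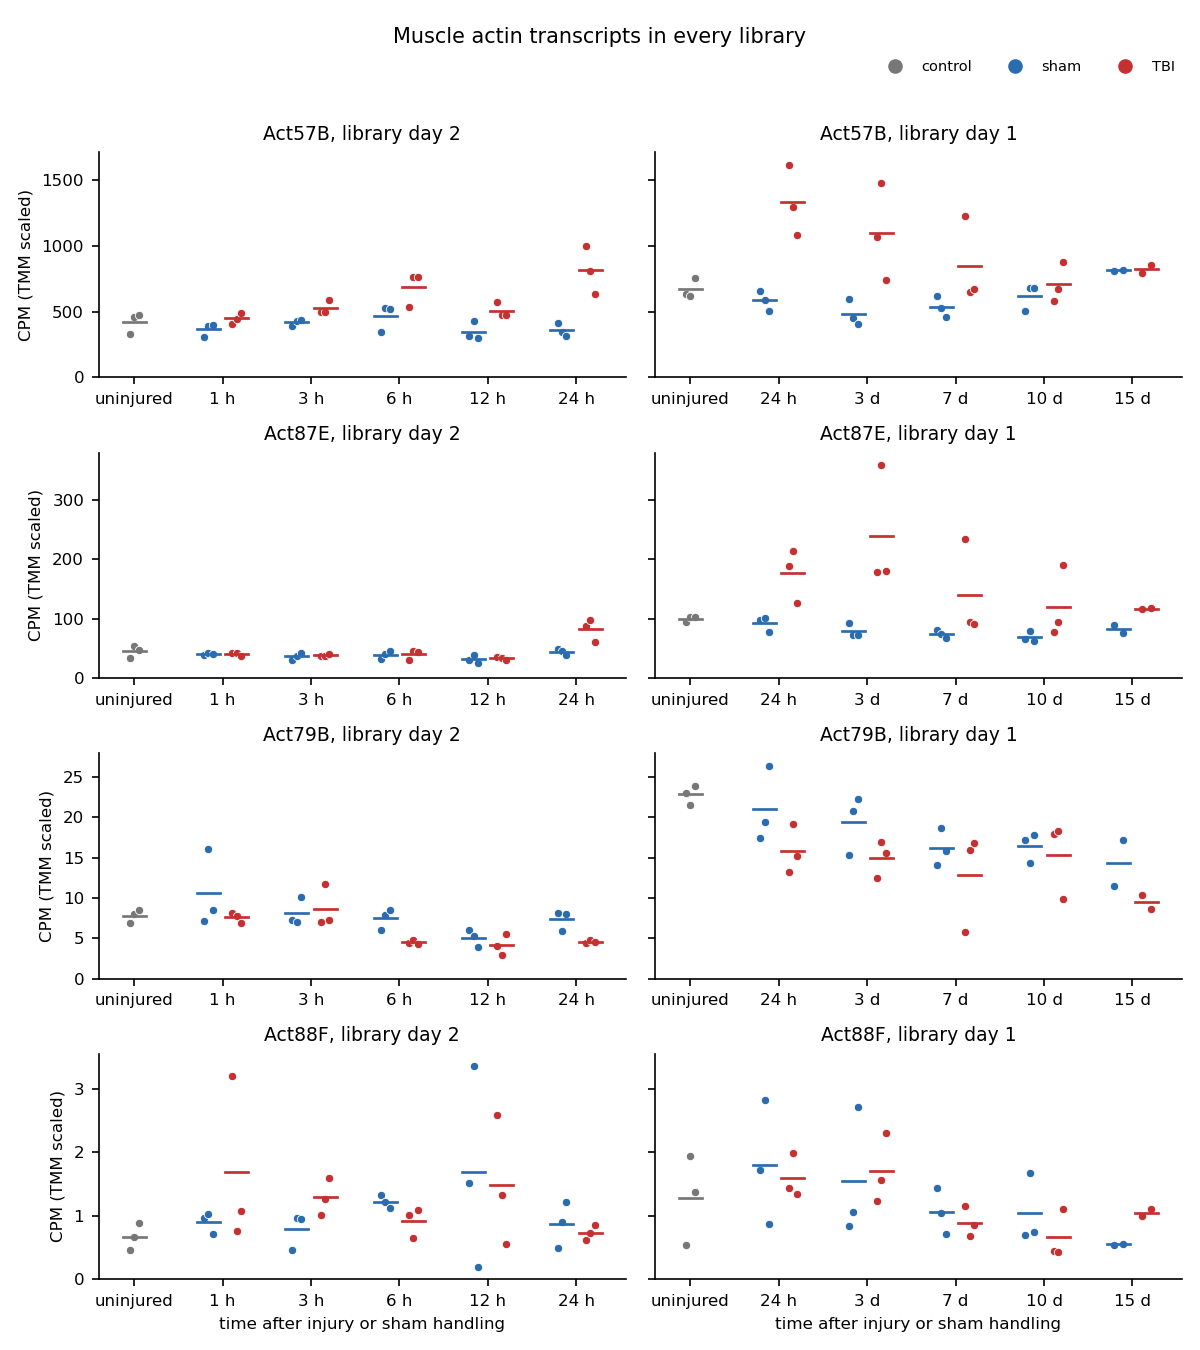
Levels of the 4 muscle actin genes in every library, in CPM scaled by the TMM factor, by time after injury, for library day 2 (left) and library day 1 (right). Points are libraries and short lines are group means. Act57B and Act87E TBI libraries stand above sham at 24 h and 3 d, single TBI libraries stand above their replicates at 7 d and 10 d, and Act79B TBI means lie at or below the sham means at every time except 3 h.

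Act79B, an actin of adult leg and thoracic muscles, passed no TBI test, and its differences had the opposite sign to those of Act57B in 9 of 10 comparisons. At 6 h, sham held 6.04, 7.91 and 8.46 CPM and TBI 4.46, 4.83 and 4.30 CPM. At 24 h on day 2, sham held 8.14, 5.88 and 8.05 CPM and TBI 4.42, 4.79 and 4.57 CPM. The log2 differences were -0.72 ± 0.26 and -0.68 ± 0.26, and neither passed (edgeR adjusted p of 0.0665 and 0.112). Both passed when only the 2 groups were fitted (0.0458 and 0.0229), and the first also with DESeq2 (0.0438). At 24 h on day 1 the same RNAs gave -0.41 ± 0.27, with overlapping groups (edgeR adjusted p = 0.330). The TBI libraries that stood highest for Act87E at 7 d and 10 d stood lowest for Act79B, at 5.83 and 9.88 CPM, against 15.9 to 18.3 CPM in their replicates. Without them the Act79B differences were 0.01 at 7 d and 0.14 at 10 d, no longer below 0. Act88F stayed between 0.198 and 3.35 CPM on day 2 and between 0.429 and 2.82 CPM on day 1, with no TBI call (edgeR adjusted p from 0.506 to 0.990), none at an unadjusted p under 0.05 and none with DESeq2. At that level it rested on as few as 6 reads in a library.

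Counted by class on day 2, the cytoplasmic actins were called higher in 10 of 10 pairs of gene and time, and the muscle actins in 3 of 20. Act88F had 6 to 76 counts per library over both days and Act79B 73 to 552, against 254 or more for each other actin gene. The numbers of calls by class were not adjusted for this. Among the day 2 calls, Act42A at 1 h and Act57B at 6 h were lost when single libraries were left out. In the order of the 5 times, 4.98%, 10.5%, 7.88%, 4.99% and 6.2% of all tested genes were called higher, and 2.41%, 6%, 4.26%, 3.63% and 2.2% lower. On day 1, 4 of 10 pairs of the cytoplasmic and 3 of 20 of the muscle actins were called higher. The day 1 calls of Act5C, Act57B and Act87E at 3 d were lost in the same way. There, again in order of time, 7.61%, 1.26%, 0.227%, 0.464% and 0.00946% of genes were called higher, and 7.41%, 0.0946%, 0%, 0.00946% and 0.0284% lower. Every actin call in these comparisons was in the direction of higher in TBI. Act5C and Act42A were among the 1.54% of genes called higher at all 5 times of day 2, which for Act42A includes that 1 h call. The sum of all 6 genes was 0.0942% to 0.127% of gene counts in sham libraries of day 2 and 0.145% to 0.273% in TBI libraries.

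**Figure D3:**
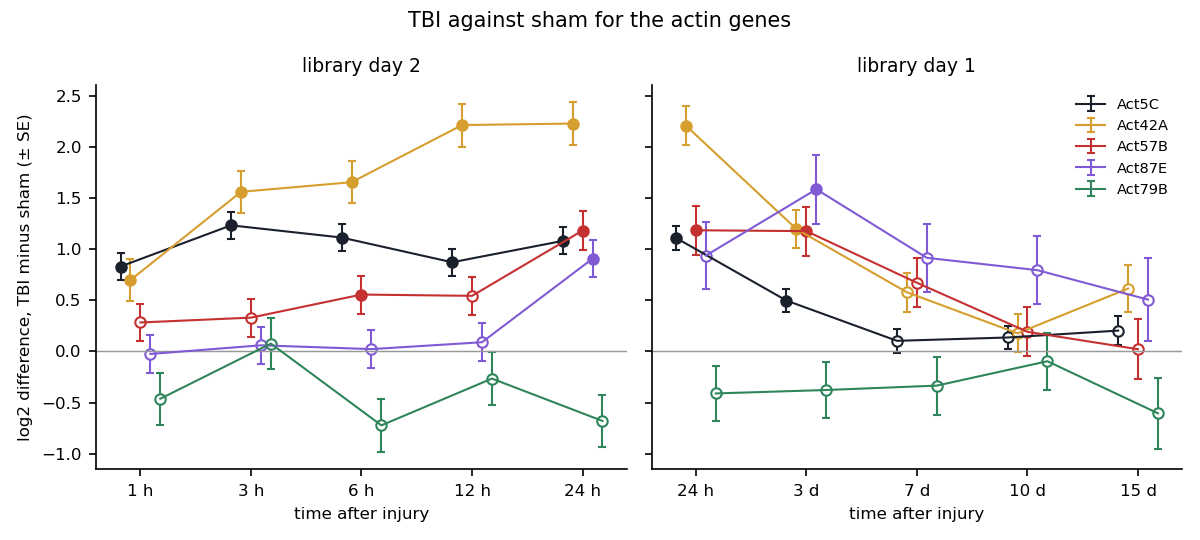
Log2 difference between TBI and sham, with its standard error, for 5 actin genes at each time, on library day 2 (left) and library day 1 (right), from edgeR. Filled points passed at an adjusted p under 0.05 and open points did not. Act42A reaches 2.23 at 24 h, Act87E lies near 0 until 12 h, and Act79B lies below 0 at every time but 3 h.

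The share of the muscle class in actin RNA was described by time, without a test. Its size depended on the length used. Per kilobase of coding sequence, it was 35.2%, 38.4% and 39.5% in the sham libraries of 1 h. In the TBI libraries of 1 h it was 26.8%, 30.1% and 29.6%. Per kilobase of merged exon, muscle actins made up 50.3% ± 2.43 of actin RNA in sham at 1 h and 40.5% ± 2.10 in TBI (SD, n = 3). The shares were 51.9% ± 1.55 and 36.4% ± 6.71 at 3 h, and the groups overlapped at neither time. At 6 h they were 59.4% ± 5.81 and 48.9% ± 9.60, and at 12 h 48.8% ± 5.42 and 41.0% ± 2.38, with overlapping groups at both times. At 24 h they were 53.1% ± 3.17 in sham and 52.6% ± 8.69 in TBI, within the spread of replicates. On day 1 they were 55.0% ± 2.94 in sham and 54.0% ± 8.80 in TBI at 24 h. At 3 d they were 48.8% ± 5.70 in sham and 59.3% ± 7.31 in TBI, and at 7 d 49.3% ± 3.67 and 57.5% ± 10.5. At 10 d they were 51.8% ± 3.89 and 53.4% ± 5.13, and the groups overlapped at each of these times. The third TBI library of 10 d, with the high Yp1, was at 59.3%, and the first and second were at 49.9% and 51.0%. At 15 d the shares were 58.8% ± 1.93 in sham and 56.0% ± 1.37 in TBI, with only 2 libraries per group.

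Partners of actin were then described by group, with their counts and medians. At the 5 times of day 2, in order, 4.98%, 10.5%, 7.88%, 4.99% and 6.2% of all tested genes rose. At the same times 2.41%, 6%, 4.26%, 3.63% and 2.2% fell. On day 1, 7.61% rose and 7.41% fell at 24 h, and 1.26% rose and 0.0946% fell at 3 d. The 8 subunits of the cytosolic chaperonin, CCT1 to CCT8, fold newly made actin and tubulin. Of these 8 genes, 1, 8, 5, 2 and 8 rose at the 5 times of day 2, in order. Their median log2 difference was 1.31 at 3 h and 0.99 at 24 h, against 0.02 and 0.00 for all genes tested. At 3 h, CCT5 went from 10.7 ± 2.45 CPM in sham to 34.7 ± 8.67 CPM in TBI (SD, n = 3; log2 difference 1.69 ± 0.29, edgeR adjusted p = 1.11e-04), the largest of the 8. CCT3 (1.50), CCT7 (1.41) and CCT1 (1.37) followed on the log2 scale. On day 1 all 8 rose at 24 h (median 1.05), and none passed at 3 d (median 0.31) or later. At 7 d, 10 d and 15 d, 0.227%, 0.464% and 0.00946% of all genes rose.

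Proteins that bind actin monomers or cut, cap and cross-link filaments formed a second group of 15 genes. Of these, 8, 10, 9, 9 and 9 rose at the 5 times of day 2, and none fell. Among all genes, 4.98% to 10.5% rose and 2.2% to 6% fell at these times. The median log2 difference of the 15 genes lay between 0.41 and 0.61. The gene cher, the fly filamin that cross-links filaments, led at 3 h, from 101 ± 26.9 to 414 ± 96.5 CPM (log2 difference 2.03 ± 0.24, edgeR adjusted p = 5.22e-07). At 24 h, cib, which encodes a multi-repeat thymosin beta protein that binds actin monomers, led instead, from 87.1 ± 5.77 to 303 ± 70.8 CPM (1.80 ± 0.14, edgeR adjusted p = 6.43e-10). Next came tsr, the fly cofilin, which severs filaments (1.21 ± 0.15), cher (1.10 ± 0.23) and capt, the cyclase-associated protein that recycles monomers (0.92 ± 0.09). On day 1, 10 of 15 rose at 24 h and 5 at 3 d, among them cib (1.08 ± 0.17, edgeR adjusted p = 9.85e-04), and none at 7 d, 10 d or 15 d. In order of these 5 times, 7.61%, 1.26%, 0.227%, 0.464% and 0.00946% of all genes rose.

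Among 22 genes that nucleate or elongate filaments (the Arp2/3 complex, its activators and the formins), 5, 10, 7, 7 and 9 rose at the 5 times of day 2, and 1 fell at each time from 3 h to 12 h. Among all genes, 4.98% to 10.5% rose over the 5 times, and 6%, 4.26% and 3.63% fell at 3 h, 6 h and 12 h. Medians of the 22 genes lay between 0.16 and 0.25. At 24 h on day 2, Arpc3B, which encodes an Arp2/3 subunit and is weakly expressed, went from 0.755 ± 0.172 to 4.14 ± 1.44 CPM (log2 difference 2.44 ± 0.33, edgeR adjusted p = 9.40e-06). Arpc3A, its more abundant relative, went from 10.8 ± 0.839 to 25.3 ± 3.25 CPM (1.22 ± 0.12). Of 9 genes of nonmuscle myosin and the cell cortex, 2, 6, 4, 4 and 3 rose at the 5 times of day 2, including sqh, the regulatory light chain of nonmuscle myosin, at 24 h (1.02 ± 0.09). Neither bs, the fly serum response factor, nor its cofactor Mrtf rose at any time, and bs fell at 3 h (log2 difference -0.40 ± 0.09, edgeR adjusted p = 0.00353).

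**Figure D4:**
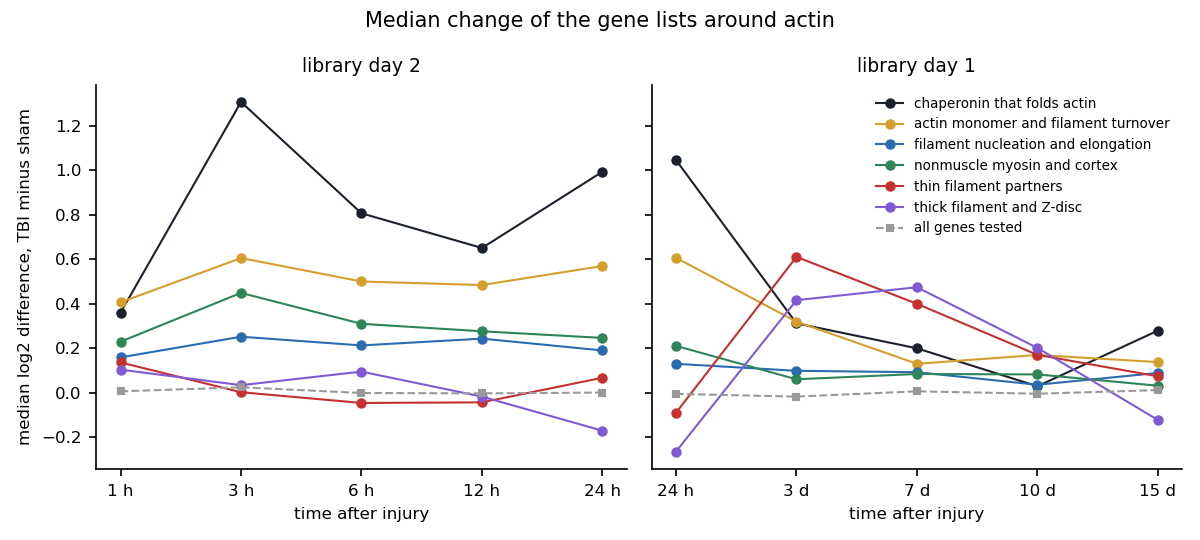
Median log2 difference between TBI and sham for 6 gene lists around actin and for all genes tested, by time, on library day 2 (left) and library day 1 (right). The chaperonin list peaks at 1.31 at 3 h, the turnover list stays between 0.41 and 0.61 on day 2, and the sarcomere lists stand at 0.61 and 0.42 at 3 d.

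Most partners of actin in the sarcomere were not called higher at 24 h. Of 15 genes of the thick filament and Z-disc tested on day 2, 2 rose and 4 fell at 24 h, with a median of -0.17. Among all genes, 6.2% rose and 2.2% fell. Prm, the paramyosin of thick filament cores, rose (log2 difference 0.94 ± 0.18, edgeR adjusted p = 7.04e-04). Obsc, a giant kinase-domain protein of the sarcomere (-0.71 ± 0.21), Zasp66, a Z-disc protein (-0.66 ± 0.15), and Mhc, the muscle myosin heavy chain (-0.58 ± 0.17), fell. Of 10 thin filament partners, 2 rose, the troponin C genes TpnC47D (1.69 ± 0.44, at 0.526 CPM in TBI) and TpnC73F (0.44 ± 0.14). On day 1 at 24 h, 1 thick filament gene rose and 3 fell (median -0.27), and 0 of 9 thin filament partners rose and 1 fell. There 7.61% of all genes rose and 7.41% fell. At 3 d, 1 of 15 and 1 of 9 rose and none fell, where 1.26% of all genes rose and 0.0946% fell. The medians were 0.42 and 0.61, against -0.02 for all genes.

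Muscle markers were highest in the TBI libraries that stood highest for Act87E at 3 d, 7 d and 10 d, and their sums overlapped between TBI and sham at 24 h. The summed level of the muscle markers Mhc, Mlc2, up, wupA and Prm was 1630 to 1990 CPM in sham and 1540 to 1980 CPM in TBI at 24 h on day 2. At 24 h on day 1 it was 2260 to 2590 CPM in sham and 2120 to 2630 CPM in TBI. Within this sum, Prm was called higher and Mhc lower at 24 h on day 2. At 3 d the sum was 1680 to 2290 CPM in sham, and 2938, 3591 and 2265 CPM in the 3 TBI libraries, with the second highest for both the markers and Act87E. At 7 d it was 1500 to 1910 CPM in sham and 3749, 2049 and 1972 CPM in TBI, again with the same library highest. At 10 d it was 1621 to 1878 CPM in sham and 1735, 1569 and 2258 CPM in TBI. At 15 d it was 1730 and 1932 CPM in sham and 1668 and 1756 CPM in TBI, with only 2 libraries per group. Of the 5 markers, 1 (Prm) passed at 3 d and 0 at 7 d by edgeR. Among all genes, 1.26% and 0.227% were called higher at these times, and 0.0946% and 0% lower. The part of the muscle markers in the Act57B and Act87E results was not tested at any time. None of the 5 was at 0 in any library, and the flight muscle markers summed to at most 4.07 CPM.

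**Figure D5:**
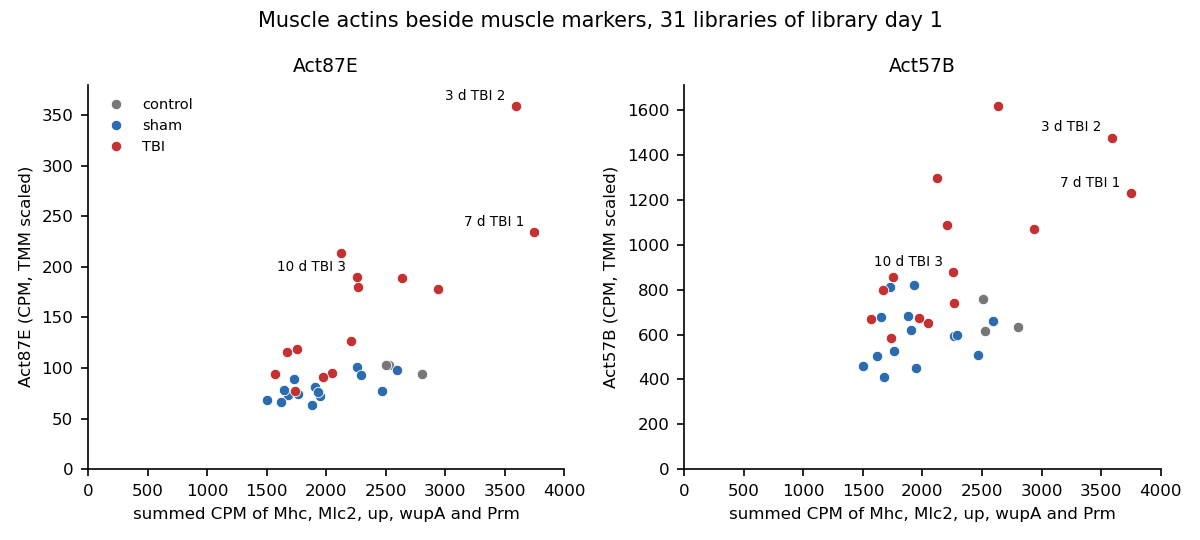
Levels of Act87E (left) and Act57B (right), in CPM scaled by the TMM factor, against the summed CPM of 5 muscle markers in the 31 libraries of day 1. Each point is 1 library. The second 3 d and first 7 d TBI libraries stand farthest right, at 3591 and 3749 CPM of markers.

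Sham handling was compared with uninjured controls on day 2, and no actin gene passed at any of the 5 times. Of the 30 pairs of gene and time, edgeR and DESeq2 called 0, and 3 had an unadjusted p under 0.05. In order of time, 0.438%, 0.363%, 3.12%, 5.8% and 1.28% of all genes were called in either direction. For the cytoplasmic actins the log2 differences lay between -0.15 and 0.40. The smallest adjusted p was that of Act87E at 12 h, with 29.8, 39.3 and 25.3 CPM in sham and 33.3, 54.0 and 47.4 CPM in controls (-0.52 ± 0.18, edgeR adjusted p = 0.0925). It passed without sham replicate 2 (edgeR adjusted p = 0.0421) or control replicate 1 (0.0205), and Act88F at 12 h passed without sham replicate 3 (log2 difference 1.84, adjusted p = 0.0267). These comparisons share 1 set of controls.

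Across age, sham heads of day 1 were compared with sham heads at 24 h. Of 24 pairs of gene and time, 1 passed: Act88F was lower at 15 d, at 0.531 and 0.560 CPM, than at 24 h, at 1.72, 2.82 and 0.861 CPM (log2 difference -1.72 ± 0.60, edgeR adjusted p = 0.0439). It was lost without either 15 d library and without the first or second 24 h library (adjusted p up to 0.208), and also without single libraries of groups outside the comparison. Of all genes, 0.293%, 8.86%, 19.8% and 20% were called in these comparisons, from the earliest to the latest. Act5C stayed within 911 to 1145 CPM in all sham libraries of day 1. The comparisons share the sham 24 h libraries.

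The same 9 RNAs gave lower actin values on library day 2 than on day 1 for all 6 genes, and 66.2% of all genes passed that test. The log2 difference was -0.40 ± 0.05 for Act5C, -0.43 ± 0.04 for Act42A and -0.42 ± 0.06 for Act57B. It was -0.84 ± 0.05 for Act87E, -0.69 ± 0.24 for Act88F and -1.33 ± 0.09 for Act79B (edgeR adjusted p = 4.38e-08). Levels are therefore compared within a library day only, and the order of Act87E, Act42A and Act79B rests on values that shifted unequally between days.

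Over the libraries of a day, the genes whose log2 level was most like that of each actin were named by Pearson's r, as a description, since these libraries share groups and depth. For Act5C they were AnxB11 (r = 0.95), AnxB9 (0.94) and Mmp1 (0.93) over 31 libraries on day 1, and RhoL, mys and Tbca (each 0.97) over 33 libraries on day 2. For Act42A they were cib (0.95), betaTub56D (0.95) and Arp3 (0.95) on day 1, and PIG-V (0.97), cib (0.96) and Ilk (0.96) on day 2. The monomer-binding gene cib was thus among the first 3 on both days. For Act57B they were Mp20 (0.88), Neurochondrin (0.88) and CG14207 (0.86) on day 1, and CG6972 (0.87), Mp20 (0.87) and CG5612 (0.85) on day 2. Mp20 encodes a muscle protein and again appeared on both days. For Act87E they were Sclp (0.90), kumpel (0.86) and Prm (0.84) on day 1, and CG15537 (0.75), CG7191 (0.70) and CG10257 (0.68) on day 2. For Act79B they were yellow-h (0.86), CG6836 (0.85) and Cyp313a1 (0.85) on day 1, and P5CDh1 (0.83), mAcon1 (0.80) and Hsc70-1 (0.80) on day 2. For Act88F the values were lower, at most 0.69 for lncRNA:CR44922 on day 1 and 0.73 for l(3)76BDm on day 2.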

How the data were processed

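Per the labels, RNA was selected by poly(A), a strand-keeping kit made the libraries, and a NextSeq read 75 cycles. The deposited values are raw counts per gene; the submitters' processing notes name FastQC, MultiQC, HISAT2, Picard, HTSeq and DESeq2, with no versions, and no source used here gives the strand setting. The 5 rows that name no gene were left out, and the genes held 78.2% to 86.0% of all entries per library on day 1 and 67.9% to 79.0% on day 2. Each library day was fitted apart with edgeR 4.0.16 (R 4.3.3): TMM scaling, a filter at a minimum count of 10, and a robust quasi-likelihood model of 11 groups, over 10567 genes on day 1 and 10739 on day 2. P-values were adjusted by Benjamini-Hochberg over all genes, and 0.05 was the threshold. DESeq2 1.42.0 was an alternative. The RNAs of both days were tested with RNA as a block. The pipeline was tested on simulated data. Replicates are called biological, with no separate cultures named, so p-values measure only the spread between these samples. The actin genes, partner lists and tests were chosen with earlier results of these data known; from each list, up to 4 passing genes with the largest change were named, and for likeness the 3 other genes with the highest r among those with a mean of at least 10 CPM. Gene coordinates and lengths come from Ensembl release 115. One partner gene, zip, was not matched and is not used here.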

Additional observations from a re-analysis of the deposited data

Results flagged for a closer look

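The TBI difference varied among the 5 times of a library day for 3 of the results, each by a joint edgeR quasi-likelihood test with Benjamini-Hochberg adjustment over all genes. For Act42A the adjusted p was 0.000844 on library day 1, where the log2 difference was 2.21 at 24 h and 0.18 at 10 d, and 0.00635 on library day 2, where it was 0.70 at 1 h and 2.23 at 24 h. For Act5C it was 0.00553 on library day 1, where the log2 difference was 1.11 at 24 h and 0.10 at 7 d. These 3 calls were kept without any 1 library. The joint test did not pass for Act57B, Act79B, Act87E or Act88F on either day.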

How the results depend on the processing

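RLE size factors and the replicate block changed no actin call in any comparison. On day 2, 13 actin calls for TBI against sham became 11 to 15 over all settings and 11 to 14 without any 1 library. The gained calls included Act79B at 6 h and 24 h, which was lower in TBI. On day 1, 7 calls became 4 when only the 2 groups were compared, 8 with DESeq2 and 4 to 8 without any 1 library. The 0 calls of sham against control became 0 to 1, and the 1 call of sham against sham 24 h became 0 with no filter or only the 2 groups, and 0 to 1 without any 1 library. The joint test on day 2 called 1 gene, or 2 (Act87E too) without the third TBI 24 h library, a range of 1 to 2. With coding length, 8 of 12 places in the order of levels over both days were kept, and the muscle share in controls was 43.6% on day 1 and 42.8% on day 2 instead of 56.3% and 55.6% (the same with no length correction, as coding lengths are equal); without 1 control it was 55.4% to 56.9% and 54.1% to 58.2%. These length settings and RLE for the library days were chosen after seeing the data. Of single gene values, 666 without a library of the 2 groups compared held 25 lost and 5 gained calls (libraries of other groups moved calls too, such as Act57B at 6 h), 586 under other settings 9 lost and 7 gained, and none reversed. The series text calls sham and TBI animals paired, but no label says that a number marks a pair. Same-numbered libraries deviated together in 25 of 29 pairs (r over 0.1, range -0.31 to 0.82) and 22 of 29 TBI libraries correlated best with their own number. This is a hint from the data that the numbers may pair samples. The pairs are not all independent: those at 24 h hold the same RNAs on both days, and the 2 at 15 d share 1 value of r (0.27). As 4 pairs fell short, the block was kept as an alternative. With the replicate block the calls stayed at 13 and 7. Counting unique read positions per gene was not run. Act88F rested on as few as 6 reads in a library.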

Other observations

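In sham heads of day 1, partners of actin are given by age beside the share of all genes called, which was 8.86%, 19.8% and 20% for 7 d, 10 d and 15 d. Among the 8 chaperonin subunit genes, 2 were higher at 7 d, 6 at 10 d and 5 at 15 d than at 24 h (edgeR), with medians of 0.28, 0.50 and 0.54 on the log2 scale. Of 15 thick filament and Z-disc genes, 4, 6 and 3 were lower at these times and none was higher, with medians of -0.48, -0.45 and -0.39. Sham heads at 12 h also had 5 of 15 such genes and 4 of 10 thin filament partners lower than controls, and none higher, where 5.8% of all genes were called.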
